A study of Mus musculus with 4 samples.

Results

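Kidney macrophages that carried complement C1q RNA with little or no Cd5l RNA were compared between aged mice given a glutaminase inhibitor and mice given its vehicle. Members were chosen from the raw counts of unique molecular identifiers (UMIs) in each cell. A member held at least 1 UMI of Ptprc, which encodes CD45, at least 10 of C1qa, C1qb and C1qc together, and at most 1 of Cd5l. It also held at most 2 of the cycling genes Mki67 and Top2a together, 0 of Cd3d, Cd3e and Cd3g, at most 1 of Cd79a and at most 3 of the tubule genes Lrp2 and Slc34a1 together. The rule took 2961 of 50605 cells with at least 500 UMIs, at least 300 genes and at most 50% of UMIs from mitochondrial genes, out of 76278 deposited barcodes. Because these 13 genes chose the cells, their levels are a description and none of them was tested.

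All mice were male C57BL/6, and dosing for 1 month began at 19 months of age. BPTES, given for 2 libraries, is a small-molecule inhibitor of glutaminase activity, by which cells turn glutamine into glutamate. DMSO, its vehicle, was given for the other 2 libraries, and the sample labels name no transgene or other agent. The counts hold an entry for the reporter tdTomato, which was left out of the tests. Kidneys were digested with Liberase, and each library mixed 20000 sorted CD45- cells with 9000 CD45+ cells of 1 tissue, so shares are given among Ptprc-positive cells and not among all cells. The labels do not say whether libraries came from separate animals, and p-values then measure only the spread between these libraries. Values in series of 4 are in the order BPTES 1, BPTES 2, DMSO 1, DMSO 2.

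C1q is the recognition part of the classical complement pathway, and tissue macrophages are a main source of it. Kidney macrophages take up debris and immune complexes, digest them in lysosomes, present antigen, and release chemokines that recruit monocytes and lymphocytes. Cd5l is a secreted protein of the scavenger receptor family known from resident macrophages such as those of the liver.

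The rule found 704, 670, 885 and 702 macrophages in the 4 libraries. Among Ptprc-positive cells their shares were 15.6%, 15.8%, 17.9% and 16.0%. The group means were 15.7% ± 0.102 (SD, n = 2) and 16.9% ± 1.36 (SD, n = 2), a difference of -1.26 percentage points with a 2-sided exact permutation p of 0.333, the smallest that 2 libraries against 2 allow. The exact (Clopper-Pearson) 95% intervals, which cover counting error only, overlapped between DMSO 2 (14.9% to 17.1%) and both BPTES libraries. Without DMSO 1 the difference was -0.30 points. Without the limits on Cd3, Cd79a, cycling and tubule UMIs, a choice made after the data were seen, it was -4.57 points (exact permutation p = 0.333). Cells let in by dropping the tubule limit were added to the denominator too. The cycling limit was failed by 146, 111, 312 and 310 of 1348, 1212, 1743 and 1511 cells that were positive for C1q and Ptprc.

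Depth moved with treatment. Median UMIs per member were 14190.5, 14356, 17435 and 18942 in the 4 libraries, lower in each BPTES library than in each DMSO library, and median C1q UMIs per member were 129.5, 126, 168 and 214. With the C1q and Cd5l limits applied to UMIs scaled to 10000 per cell, 9 genes were called, 5 of the 6 named below among them and Ccl17 not (-1.83, adjusted p = 0.601), and the difference in the share was -1.99 points. The part of depth apart from these limits was not tested. Summed over members, the libraries held 13246870 to 19154741 UMIs. Just inside the C1q limit, at 10 to 19 UMIs, lay 22, 17, 34 and 31 members, and just outside it, at 5 to 9, lay 36, 23, 53 and 64 cells that met the other conditions. Cd5l was at 0 in 701, 669, 872 and 697 members and at 1 UMI in the rest. Pairs of libraries shared 90 to 114 cell barcodes, of which 1 belonged to members of both libraries, DMSO 1 and DMSO 2.

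The label was checked after each cell was thinned at random to 8000 UMIs, which left out 55 to 90 members per library. Adgre1, which encodes F4/80, was found in 90.1% to 94.0% of members and in 3.02% to 4.37% of T cells from the same libraries at the same depth. Csf1r, the receptor for macrophage colony-stimulating factor, was found in 95.9% to 98.6% of members and 5.70% to 7.76% of T cells. Ccl8, a chemokine given as a marker of these cells, was found in only 5.70%, 4.12%, 13.6% and 29.0% of members, and in 7.24%, 5.52%, 17.1% and 33.3% without thinning, so it marked a minority in every library. Without thinning Adgre1 was found in 94.9% to 96.9% and Csf1r in 98.4% to 99.3% of members. Before thinning, the median T cell, taken as a cell with at least 3 UMIs of Cd3d, Cd3e and Cd3g, held 12032, 11795, 11942 and 11990 UMIs.

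The selection also took in cells with markers of other types. By a criterion set after the data were seen, 18.9, 17.8, 17.5 and 26.2 percent of members held at least 5 UMIs of the markers of neutrophils, T cells, natural killer cells, B cells, endothelium, fibroblasts or distal tubule, at least 2 of Xcr1, or at least 3 of Ccr7, Fscn1 and Cacnb3. That criterion was applied without thinning, and members were deeper under DMSO, so its shares are not corrected for depth. The 6 neutrophil markers summed to 1174 and 1185 CPM (counts scaled to a common library size) under BPTES and 949 and 979 under DMSO, and the 7 markers of type 1 dendritic cells to 839 and 902 and 811 and 802. The 6 markers of mature dendritic cells summed to 71.9 and 74.1 CPM under BPTES and 147 and 153 under DMSO. The 6 markers of nonclassical monocytes summed to 442 and 332 CPM under BPTES and 279 and 214 under DMSO. The criterion above did not cover monocytes or type 2 dendritic cells. In the members it left, nonclassical monocyte markers summed to 270 and 258 CPM under BPTES and 217 and 168 under DMSO. Type 2 dendritic cell markers there summed to 405 and 440 CPM under BPTES and 319 and 288 under DMSO. T cell markers summed to 24.96 and 18.12 CPM under BPTES and 13.8 and 16.4 under DMSO, with 3 of 6 higher and 0 lower at an unadjusted p under 0.05 in the test described below. Endothelial markers summed to 174 and 170.0 CPM under BPTES and 90.1 and 145 under DMSO, with 3 of 7 higher and 0 lower. At that level 3 of 6 neutrophil, 4 of 6 nonclassical monocyte, 3 of 6 plasma cell and 2 of 7 classical monocyte markers were higher, as were 2 of 7 for each of type 1 and type 2 dendritic cells and 1 of 8 for proximal tubule. Lower were 4 of 6 markers of mature dendritic cells and 1 each of classical monocytes and type 2 dendritic cells. The lists of natural killer cells, B cells, distal tubule and fibroblasts had 0 in either direction. Of all genes tested 9.06% were higher and 10.2% lower at that level, and the counts of 1 in a list lie near these shares. No marker on these lists was at 0 in every library. The part of such cells in the results was not tested, except where a value without the members that met the criterion is given.

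Treatment was compared on the UMIs summed over the members of each library. Grk5 rose under BPTES, and Acp5, Bcl2a1b, Ptgs1, Ccl17 and Mucl1 fell, so that 6 of 13727 genes tested (0.0437%) passed an adjusted p of 0.05, 1 higher (0.00728%) and 5 lower (0.0364%) (edgeR quasi-likelihood test, Benjamini-Hochberg adjustment over all genes, as for every adjusted p below). At an unadjusted p under 0.05 stood 2649 genes (19.3%), 1244 higher (9.06%) and 1405 lower (10.2%). The values of the groups did not overlap for 52.4% of all genes (24.9% higher and 27.5% lower), so a lack of overlap was common. Without BPTES 1 or without BPTES 2 the test called 0 genes, with 1585 and 1513 at an unadjusted p under 0.05, whereas 719 were called without DMSO 1 and 289 without DMSO 2. In such a fit 1 group has a single library, which is assumed to vary like the 2 of the other group, so its calls and p-values rest on the spread of that other group. DESeq2 called 436 genes, among them 5 of the 6. Levels below are normalised CPM of these sums, and changes are log2 of BPTES over DMSO with a standard error (SE).

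Acp5 encodes tartrate-resistant acid phosphatase, a lysosomal enzyme of osteoclasts and tissue macrophages. It stood at 24.0 and 24.5 CPM under BPTES and 61.9 and 70.5 under DMSO. Both BPTES libraries lay below both DMSO libraries, and Acp5 fell by 1.45 (SE 0.094, adjusted p = 0.0387). Its UMIs came from 97, 90, 178 and 227 cells, with 4.92% to 14.4% of them in the cell that held the most. Acp5 lies on chromosome 9 from 22126727 to 22135746 (GRCm38.p6, as for all positions below). T cells of the same libraries held Acp5 at 90.8 and 96.3 CPM under BPTES and 87.0 and 105 under DMSO, a change of -0.00888 (SE 0.11, adjusted p = 0.982). The difference between the responses of macrophages and T cells was -1.42 (SE 0.12) and did not pass (adjusted p = 0.149). Proximal tubule cells held Acp5 at 31.5 and 33.4 CPM under BPTES and 35.0 and 39.5 under DMSO. Both BPTES macrophage values thus lay below those of T cells and tubule cells, and the source of Acp5 RNA in the members was not tested. Without the members that held other types' markers Acp5 changed by -1.76, with an adjusted p of 0.135 and a range of 7.9e-16 to 0.460 over all alternatives.

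Bcl2a1b belongs to the A1 family of anti-apoptotic Bcl2 proteins. It stood at 170.5 and 164 CPM under BPTES and 323 and 312 under DMSO. The groups lay well apart, and Bcl2a1b fell by 0.93 (SE 0.073, adjusted p = 0.0460). It was spread over most members, with UMIs in 550, 484, 757 and 589 cells, and it was still called without the members that held other types' markers (-0.89, adjusted p = 0.0237, range 4.02e-18 to 0.460 over all alternatives). In T cells the change was -0.50 (adjusted p = 0.226), and the difference between the cell types was -0.41 (SE 0.12, adjusted p = 0.498).

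Bcl2a1b has near copies, among which reads may have been split, so the members of this family are uncertain one by one. Bcl2a1a stood at 51.0, 55.4, 89.2 and 83.1 CPM (-0.70, SE 0.081, adjusted p = 0.0782) and Bcl2a1d at 62.1, 62.4, 95.6 and 83.6 CPM (-0.53, SE 0.087, adjusted p = 0.118). Neither passed, and both lay lower in each BPTES library than in each DMSO library. Bcl2a1b lies on chromosome 9 from 89199273 to 89207838, Bcl2a1a on chromosome 9 from 88956920 to 88962416 and Bcl2a1d on chromosome 9 from 88723288 to 88731850. The 250 bases before each start (RefSeq, GRCm38.p6, 5′ to 3′ on the gene's strand) are shown, and capitals mark the longest run found in all 3, 84 bases. These bases lie before the genes, so they do not show whether reads of the copies can be told apart.
Bcl2a1b (chr9:89199023-89199272, + strand): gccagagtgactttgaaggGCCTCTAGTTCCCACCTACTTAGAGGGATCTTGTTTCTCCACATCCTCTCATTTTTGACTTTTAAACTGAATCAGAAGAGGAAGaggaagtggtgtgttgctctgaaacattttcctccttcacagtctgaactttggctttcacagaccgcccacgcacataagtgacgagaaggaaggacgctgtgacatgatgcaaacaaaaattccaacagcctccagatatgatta
Bcl2a1a (chr9:88956670-88956919, + strand): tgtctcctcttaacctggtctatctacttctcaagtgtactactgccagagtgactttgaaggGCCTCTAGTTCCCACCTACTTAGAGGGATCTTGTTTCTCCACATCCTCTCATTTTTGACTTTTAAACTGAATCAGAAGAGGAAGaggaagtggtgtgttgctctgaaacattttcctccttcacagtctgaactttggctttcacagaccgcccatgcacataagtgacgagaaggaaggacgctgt
Bcl2a1d (chr9:88731851-88732100, - strand): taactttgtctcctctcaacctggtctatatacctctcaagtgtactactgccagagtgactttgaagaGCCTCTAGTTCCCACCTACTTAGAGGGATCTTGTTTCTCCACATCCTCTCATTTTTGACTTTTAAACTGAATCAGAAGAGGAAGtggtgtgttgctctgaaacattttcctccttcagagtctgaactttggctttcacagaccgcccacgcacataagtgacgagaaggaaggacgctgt

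Ptgs1 encodes cyclooxygenase 1, which makes prostaglandin precursors. It stood at 27.8 and 29.2 CPM under BPTES and 54.6 and 57.0 under DMSO, in 203, 201, 409 and 378 cells. The groups did not overlap, and Ptgs1 fell by 0.97 (SE 0.078, adjusted p = 0.0460). After thinning, 18.3% and 18.8% of members held it under BPTES and 30.9% and 33.6% under DMSO, against 2.83% to 3.80% of T cells. Without thinning the shares of members were 28.8%, 30%, 46.2% and 53.8%. The call remained without the members that held other types' markers (-0.95, adjusted p = 0.0237, range 1.77e-07 to 0.460 over all alternatives). Ptgs1 lies on chromosome 2 from 36216742 to 36258593.

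Grk5, a kinase that phosphorylates activated G-protein-coupled receptors, was the 1 gene called higher. It stood at 140.1 and 137 CPM under BPTES and 74.3 and 66.8 under DMSO, in 315, 326, 384 and 292 cells. Both BPTES libraries lay above both DMSO libraries, and Grk5 rose by 0.98 (SE 0.079, adjusted p = 0.0460, range 7.75e-13 to 0.460 over all alternatives). After thinning, 34.4% and 37.6% of members held it under BPTES and 28.9% and 26.8% under DMSO, and without thinning 44.7%, 48.7%, 43.4% and 41.6%. T cells changed by 0.66 (adjusted p = 0.198), and the difference between the cell types was 0.34 (SE 0.14, adjusted p = 0.637). Grk5 lies on chromosome 19 from 60889560 to 61095968.

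**Figure D1:**
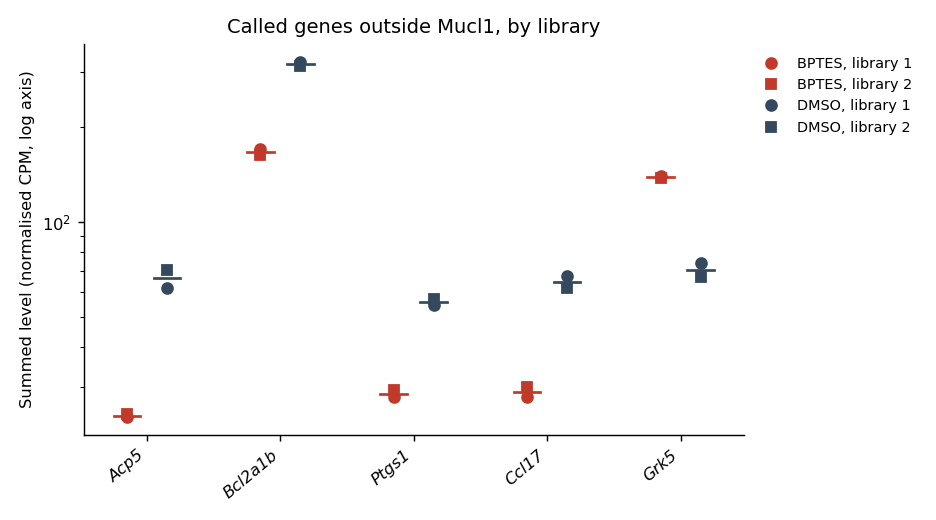
Normalised CPM (log axis) of 5 called genes in the summed macrophages of each library; points are libraries and short lines are group means (n = 2). Acp5, Bcl2a1b, Ptgs1 and Ccl17 lie lower and Grk5 lies higher in both BPTES libraries.

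Ccl17 and Mucl1 rested on few cells. Ccl17, a chemokine that acts on CCR4, stood at 27.7 and 29.8 CPM under BPTES and 67.2 and 61.5 under DMSO and fell by 1.16 (SE 0.088, adjusted p = 0.0460). Its UMIs came from 11, 10, 51 and 26 cells, and 71.5% of those in BPTES 1 lay in 1 cell. Without the members that held other types' markers it changed by -0.59 (adjusted p = 0.588, range 1.74e-10 to 0.851 over all alternatives). Ccl17 lies on chromosome 8 from 94809380 to 94812038. Mucl1, which RefSeq lists as a transcribed pseudogene on chromosome 15 from 103751923 to 103755498, lies outside the rule for named genes and is named after its values were seen. It had 1, 0, 671 and 766 UMIs (adjusted p = 0.0263), a pooled ratio of DMSO over BPTES of 1086 with an exact 95% interval of 195 to 42912 that covers counting error only. These UMIs lay in 1, 0, 7 and 14 cells, with 97.8% of those in DMSO 1 and 58.7% of those in DMSO 2 in 1 cell each.

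Genes with a shared role were then compared as 22 lists. Lower at an unadjusted p under 0.05 were 10 of 22 chemokines, 17 of 40 genes of the lysosome and cathepsins, 18 of 52 of NF-kB and inflammatory cytokines, and 13 of 27 of resident macrophage identity, against 10.2% of all genes. Higher were 1, 0, 0 and 0 of these, against 9.06% of all genes. Their median changes were -0.84, -0.24, -0.21 and -0.36, and that of all genes was -0.020. Of these lists, Ccl17, Acp5 and Bcl2a1b passed the adjusted threshold. The lists were chosen with results of these data known and are not independent evidence, and apart from a set of genes fixed with the design and the 2 most abundant members of each list, members below are named after their values were seen.

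**Figure D2:**
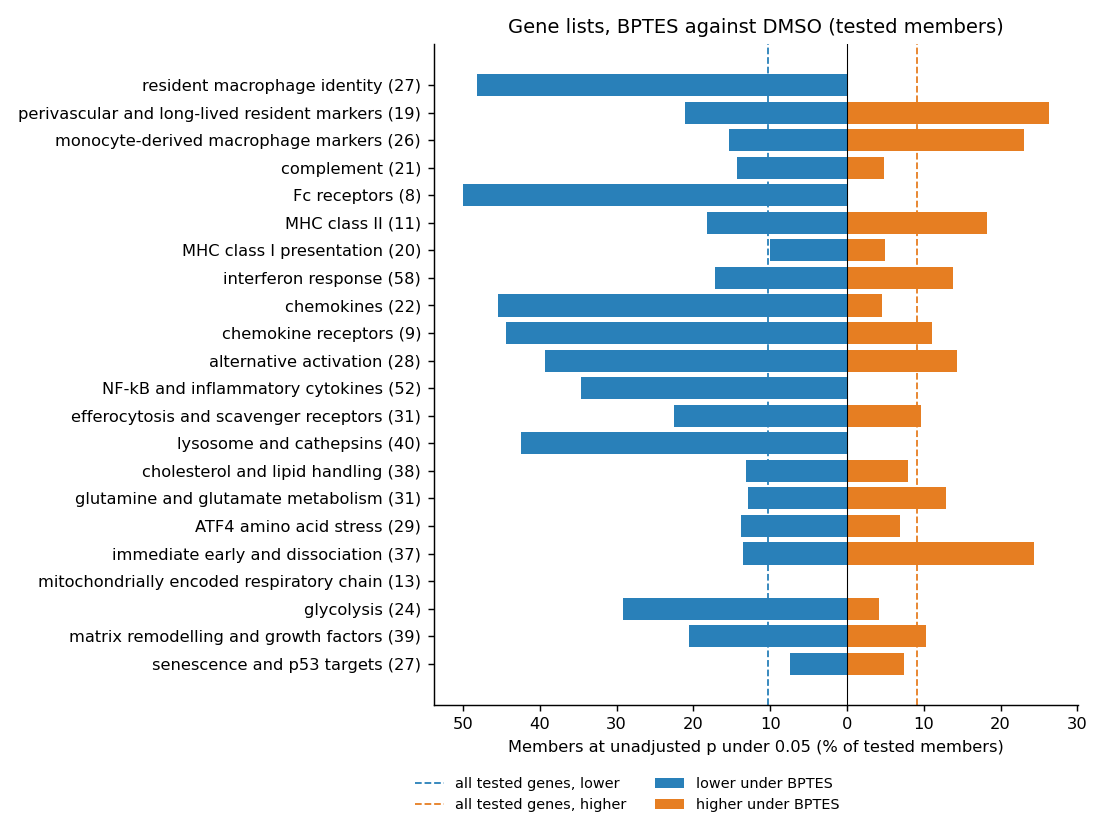
Percent of the tested members (number in brackets) of each list at an unadjusted p under 0.05, lower under BPTES to the left and higher to the right; dashed lines are the shares over all 13727 genes (10.2% and 9.06%). Fc receptors, macrophage identity, chemokines, chemokine receptors and lysosome reach beyond 40% on the lower side.

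Chemokines that attract monocytes through CCR2 had lower values under BPTES without passing the adjusted threshold. Ccl2 stood at 35.4 and 31.2 CPM under BPTES and 106 and 165 under DMSO (-2.02, SE 0.26, adjusted p = 0.118). Ccl12 stood at 94.6 and 66.8 CPM under BPTES and 236 and 273 under DMSO (-1.66, SE 0.19, adjusted p = 0.115), and Ccl7 at 12.2 and 17.1 and 56.1 and 122 (-2.60, SE 0.51, adjusted p = 0.148). Both BPTES libraries lay below both DMSO libraries for each of these genes. Ccl2 was found in 8.47%, 7.74%, 21.3% and 31.8% of thinned members, against 0.127% to 1.72% of T cells, and in 12.2%, 12.4%, 29.6% and 40.9% of all members unthinned.

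Other chemokines differed in how far the DMSO libraries stood apart. Ccl8 stood at 79.5 and 37.0 CPM under BPTES and 139 and 583 under DMSO (-2.63, SE 1.03, adjusted p = 0.337), and the gap between the DMSO libraries was wider than that between DMSO 1 and BPTES 1. Ccl9 stood at 114, 129, 188 and 199 CPM (-0.67, adjusted p = 0.0841) and Cxcl14 at 17.9, 21.9, 42.0 and 47.3 CPM (-1.17, adjusted p = 0.0758), with close values within each group. Ccl22, which acts on CCR4 and is among the markers of mature dendritic cells, stood at 2.18, 2.28, 30.8 and 18.1 CPM (-3.46, adjusted p = 0.0841) in 9, 11, 40 and 23 cells. The 2 most abundant chemokines differed little: Ccl4 changed by -0.23 (adjusted p = 0.293) and Ccl6 by -0.24 (adjusted p = 0.328). Called lower were 8 of the 22 with DESeq2, against 1.55% of all genes, 10 without DMSO 1, where the spread comes from the BPTES libraries alone, against 2.81%, and 3 without the members that held other types' markers, against 0.955%. Called lower were 0 with RLE scaling, with Cd5l at 0, with either replicate block and without either BPTES library.

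**Figure D3:**
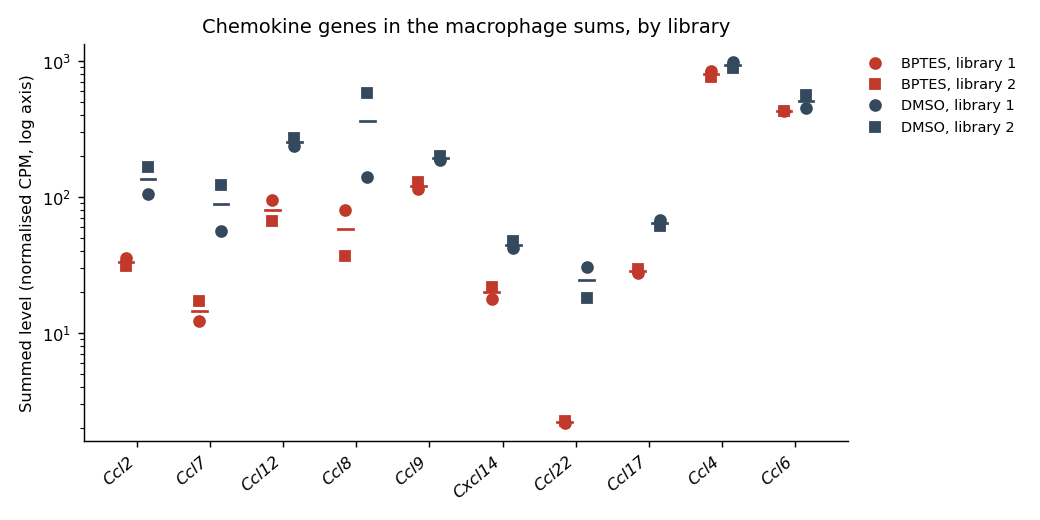
Normalised CPM (log axis) of 10 chemokine genes in the summed macrophages of each library; points are libraries and short lines are group means (n = 2). Ccl2, Ccl7 and Ccl12 are lower in both BPTES libraries, Ccl8 ranges from 139 to 583 CPM between the DMSO libraries, and Ccl4 and Ccl6 lie close together.

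Among 9 chemokine receptor genes tested 1 was higher (11.1%) and 4 lower (44.4%) at an unadjusted p under 0.05, against 9.06% and 10.2% of all genes. In the main test 0 were called, while Ccr1, Ccr2 and Cx3cr1 were called lower and Cxcr4 higher in some alternatives. Ccr1, a receptor for several CC chemokines, stood at 43.5, 43.7, 62.0 and 72.6 CPM (-0.63, adjusted p = 0.118). Cxcr4, the receptor for Cxcl12, stood at 131, 153, 68.5 and 103 CPM (0.73, adjusted p = 0.219) and was the 1 higher at an unadjusted p under 0.05. The most abundant were Ccr2, the receptor for Ccl2, at 457, 474, 626 and 542 CPM (-0.33, adjusted p = 0.175), and Cx3cr1, the fractalkine receptor (-0.52, adjusted p = 0.118).

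Of the 40 genes of the lysosome and cathepsins 36 had values below 0, against 7264 of 13727 genes in all, and Acp5 alone was called. Ctsd, which encodes the protease cathepsin D, stood at 145 and 153 CPM under BPTES and 249 and 305 under DMSO (-0.89, SE 0.11, adjusted p = 0.0841). Grn, the precursor of granulins, stood at 246, 257, 370.0 and 423 CPM (-0.65, adjusted p = 0.0987), Ctsb, which encodes cathepsin B, at 1004, 979, 1405 and 1668 CPM (-0.63, adjusted p = 0.118), and the membrane protein gene Lamp1 at 427, 433, 543 and 647 CPM (-0.47, adjusted p = 0.127). The groups did not overlap in any of these. Other cells also held some of this RNA: Ctsd stood at 223, 190, 224 and 203 CPM in T cells and 141, 158, 127 and 169 in proximal tubule cells. Tubule cells held Lamp1 at 669, 788, 655 and 774 CPM, while Grn and Ctsb stood lower in T cells and tubule cells than in the macrophages. The source of the RNA was not tested. The 2 most abundant members differed less: Ctss, a protease that trims the class II invariant chain, changed by -0.19 (adjusted p = 0.355), and Cst3, an inhibitor of cathepsins, by 0.074 (adjusted p = 0.748). Lysosomal genes called lower numbered 11 with DESeq2, 11 without DMSO 1 and 2 without the members that held other types' markers, against the shares of all genes given above. They numbered 0 with Cd5l at 0, in members without Mmp12, with either replicate block and without either BPTES library.

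Promoters were read for 2 motifs because members of these lists lay on the same side, and the motifs were chosen after the values were seen. In the 250 bases before each start (RefSeq, GRCm38.p6, both strands, overlapping matches counted), CACGTG was in 10 of 40 promoters of 31 lysosome and cathepsin genes and in 6.02% of 32851 promoters in all. Of the 10 genes with it, 6 were lower and 0 higher at an unadjusted p under 0.05, against 17 and 0 of the 40 tested in the list and 10.2% and 9.06% of all genes. GGANTTTCC, where N is any base, was in 9 of 47 promoters of the NF-kB list, in 4 of 16 of the chemokines and in 1.07% of all. Of the genes with it, 2 of 9 in the NF-kB list and 1 of 4 chemokines were lower at that level, against 18 of 52 and 10 of 22 in the lists. For both motifs the list counts include the genes with the motif and genes for which no promoter was read. Genes with and without a motif were therefore not compared like with like. Such a match describes letters and is not evidence of a bound site. The promoters of Ctsd, with 2 matches to CACGTG, and Lamp1, with 4, are shown with the matches in capitals.
Ctsd (chr7:142387828-142388077, - strand): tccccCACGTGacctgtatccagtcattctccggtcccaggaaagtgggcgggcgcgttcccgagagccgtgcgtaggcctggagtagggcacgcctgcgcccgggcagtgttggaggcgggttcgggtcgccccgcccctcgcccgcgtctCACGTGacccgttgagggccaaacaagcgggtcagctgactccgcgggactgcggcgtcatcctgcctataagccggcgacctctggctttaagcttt
Lamp1 (chr8:13158911-13159160, + strand): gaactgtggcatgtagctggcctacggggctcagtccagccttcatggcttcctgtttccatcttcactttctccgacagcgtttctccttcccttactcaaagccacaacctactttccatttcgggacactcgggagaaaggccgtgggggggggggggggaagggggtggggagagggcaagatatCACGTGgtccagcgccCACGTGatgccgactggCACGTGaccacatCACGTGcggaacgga

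Of 27 genes of macrophage identity 23 had values below 0 and 4 above it, from -2.22 to 0.071, against 7264 of 13727 genes in all below 0. In the main test 0 of the 27 were called, while Trem2, Mertk, P2ry12 and Itgam were each called in some alternatives. Trem2, a lipid-sensing receptor, stood at 78.8 and 78.7 CPM under BPTES and 128 and 145 under DMSO (-0.79, SE 0.084, adjusted p = 0.0758). Mertk, a receptor for dying cells, stood at 74.0, 72.2, 103 and 108 CPM (-0.53, adjusted p = 0.0841), and P2ry12, a receptor for nucleotides, at 37.4, 32.9, 62.6 and 76.9 CPM (-0.99, adjusted p = 0.0841). The groups did not overlap in these genes. Itgam, which encodes CD11b, changed by -0.74 (adjusted p = 0.120). The transcription factor gene Maf stood at 146, 125, 174 and 254 CPM (-0.66, adjusted p = 0.219), highest in DMSO 2, and its change was -0.36 without DMSO 2 and -0.89 without DMSO 1. Adgre1 stood at 530.4, 503, 532 and 794 CPM (-0.36, adjusted p = 0.416), where DMSO 2 alone was set apart, and Csf1r at 717, 639, 683 and 766 CPM (-0.096, adjusted p = 0.669), where the groups overlapped. The most abundant members were Tyrobp, a signalling adaptor (-0.12, adjusted p = 0.513), and Laptm5, a lysosomal membrane protein (0.071, adjusted p = 0.737).

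**Figure D4:**
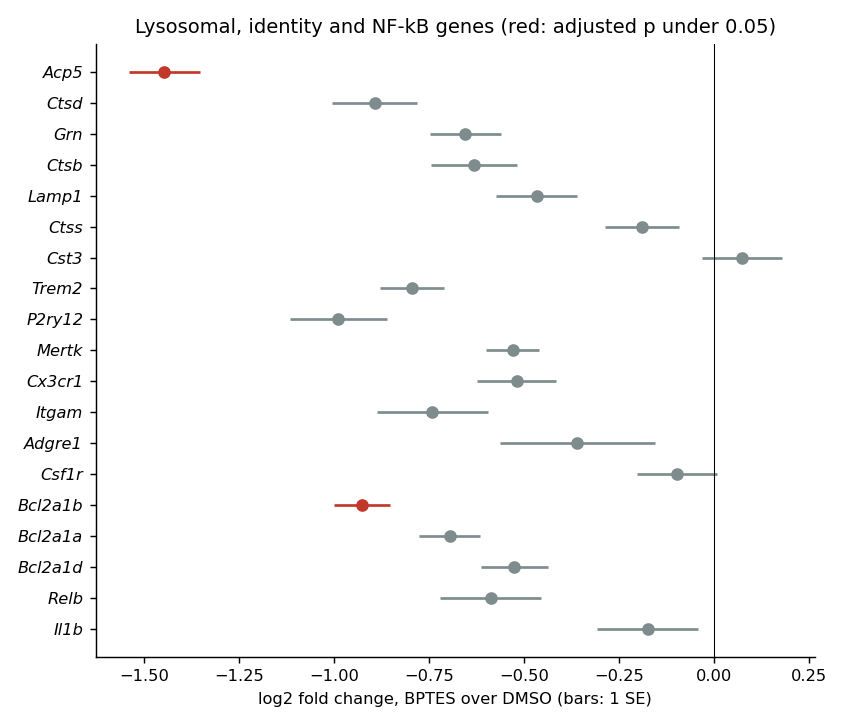
Log2 fold change of BPTES over DMSO (bars are 1 SE, 2 libraries a group) of 19 lysosomal, identity and NF-kB genes; red marks an adjusted p under 0.05. Acp5 and Bcl2a1b are red, and Csf1r and Cst3 lie nearest to 0.

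In the list of NF-kB and inflammatory cytokines, Vcam1, an adhesion molecule, stood at 44.4, 44.9, 100.3 and 71.5 CPM (-0.94, adjusted p = 0.120) and Cd40, a co-stimulatory receptor, at 27.1, 22.6, 50.8 and 38.2 CPM (-0.84, adjusted p = 0.124). Relb, an NF-kB subunit that is also among the markers of mature dendritic cells, stood at 60.7, 62.1, 80.6 and 104 CPM (-0.59, adjusted p = 0.132). Il1a, which encodes interleukin 1 alpha and was found in 15, 16, 42 and 56 cells, changed by -2.25 (adjusted p = 0.138). Il1b, the most abundant of the list, stood at 1274, 1386, 1335 and 1666 CPM (-0.17, adjusted p = 0.526) with overlapping groups. Called lower in this list were 9 with DESeq2, 13 without DMSO 1 and 5 without the members that held other types' markers, against the same shares of all genes as for the chemokines, and 0 with RLE scaling, with Cd5l at 0, with either replicate block and without either BPTES library.

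Of 11 class II and 20 class I genes of antigen presentation 0 were called. Cd74, the class II invariant chain, stood at 21116, 21797, 20911 and 20832 CPM (0.040, adjusted p = 0.892), and the class II genes H2-Aa and H2-Ab1 changed by 0.00496 (adjusted p = 0.988) and 0.00424 (adjusted p = 0.989). Of 11 class II genes 2 were higher and 2 lower at an unadjusted p under 0.05 (18.2% on either side, against 9.06% and 10.2% of all genes), with changes from -1.10 to 0.54, among them Ciita, the class II transactivator, at 356, 410.3, 309.5 and 306 CPM (0.32, adjusted p = 0.171) and H2-DMb2, a peptide-loading chain, at -0.53 (adjusted p = 0.118). Of 20 class I genes 1 was higher (5%) and 2 lower (10%) at that level, with B2m at -0.10 (adjusted p = 0.630) and H2-D1 at 0.019 (adjusted p = 0.934). Of 58 interferon response genes 8 were higher (13.8%) and 10 lower (17.2%) at that level. The most abundant of these, Ifitm3 and Ly6e, changed by -0.011 (adjusted p = 0.968) and -0.16 (adjusted p = 0.585), and Cxcl10, an interferon-induced chemokine, by -0.62 (adjusted p = 0.110).

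Complement genes other than C1q held 1 higher (4.76%) and 3 lower (14.3%) of 21 tested at an unadjusted p under 0.05, against 9.06% and 10.2% of all genes. Cfp, properdin of the alternative pathway, stood at 76.6 and 90.0 CPM under BPTES and 166 and 202 under DMSO (-1.14, SE 0.13, adjusted p = 0.0841). It was found in 19.9% and 20.1% of thinned members under BPTES and 36.2% and 44.7% under DMSO, against 4.23% to 5.67% of T cells, and the unthinned shares of members were 30.5%, 31.3%, 46.8% and 57.7%. C3ar1, the receptor for C3a, stood at 215, 186, 285 and 393 CPM (-0.76, adjusted p = 0.145). Of 8 Fc receptor genes 0 were higher (0%) and 4 lower (50%) at that level. Fcgr1, the high-affinity IgG receptor, changed by -0.59 (adjusted p = 0.118), the inhibitory receptor Fcgr2b by -0.23 (adjusted p = 0.234) and the shared chain Fcer1g by -0.24 (adjusted p = 0.265). Of 31 genes in a mixed list of efferocytosis, the uptake of dying cells, and scavenger receptors 3 were higher (9.68%) and 7 lower (22.6%) at that level. The most abundant, Dock2 and Elmo1, changed by 0.17 (adjusted p = 0.364) and 0.16 (adjusted p = 0.352).

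Markers of long-lived resident macrophages held 5 higher (26.3%) and 4 lower (21.1%) of 19 tested at an unadjusted p under 0.05, against 9.06% and 10.2% of all genes. Of the 19, 11 had values above 0 and 8 below it, from -0.99 to 5.97, with a median of 0.21 against -0.020 for all genes. The members named next therefore do not stand for the list. Mrc1, the mannose receptor, stood at 452 and 444 CPM under BPTES and 686 and 947 under DMSO (-0.86, SE 0.16, adjusted p = 0.118). Pf4, platelet factor 4, stood at 102, 85.9, 171 and 202 CPM (-0.99, adjusted p = 0.0841), and the scavenger receptor gene Stab1 at 119, 109.8, 132 and 220.1 CPM (-0.62, adjusted p = 0.323). Without DMSO 2 the change of Stab1 was -0.21, and without DMSO 1 it was -0.92. Cd163, Folr2 and Timd4 were low, at 11.7, 7.53, 6.08 and 5.46 CPM (0.73, adjusted p = 0.196), 9.14, 5.02, 5.72 and 6.44 CPM (0.22, adjusted p = 0.740) and 1.81, 3.80, 1.73 and 1.29 CPM (0.89, adjusted p = 0.356). Lyve1 had 89, 12, 2 and 6 UMIs in 2, 1, 2 and 3 cells (3.96, adjusted p = 0.210), with 1 cell of BPTES 1 holding 68.5% of that library's UMIs. Vsig4 was found in at most 0.377% of thinned members, and in BPTES 1 in 0 of 649 and BPTES 2 in 0 of 607, which allow shares of thinned cells with a UMI, not of cells that express the gene, of up to 0.462% and 0.494% (3 cells of the total, counting error only). Unthinned, 0.142% to 1.02% of members held it.

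Of 26 genes of monocyte-derived macrophages 6 were higher (23.1%) and 4 lower (15.4%) at an unadjusted p under 0.05, against 9.06% and 10.2% of all genes. Ly6c2, a classical monocyte marker, stood at 50.4, 62.2, 32.9 and 16.6 CPM (1.18, adjusted p = 0.235), and it was found in 2.96% to 6.59% of thinned members (6.13% to 8.81% unthinned) against 35.4% to 42.5% of T cells. Its change was 1.78 without DMSO 1 and 0.78 without DMSO 2, and it was called in both of these fits, whose spread comes from the BPTES libraries alone. Ace stood at 58.4, 37.1, 26.1 and 15.4 CPM (1.20, adjusted p = 0.226) and Adgre4 at 124, 103, 72.1 and 46.6 CPM (0.93, adjusted p = 0.182), both markers of nonclassical monocytes. Cells with at least 5 UMIs of Ace, Treml4, Adgre4 and Pglyrp1 made up 14.9, 14.8, 14.9 and 9.40 percent of members, fewest in DMSO 2. These shares were taken without thinning, and members were deeper under DMSO, so they are not corrected for depth. The most abundant of the list were Lyz2, which encodes lysozyme, and Cd52 (-0.34, adjusted p = 0.148). Lyz2 stood at 5462, 5079, 5744 and 9665 CPM (-0.55, adjusted p = 0.343), with DMSO 2 set apart from the other libraries. Its change was -0.12 without DMSO 2 and -0.86 without DMSO 1.

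Of 28 genes of alternative activation 4 were higher (14.3%) and 11 lower (39.3%) at an unadjusted p under 0.05, against 9.06% and 10.2% of all genes. Mgl2, a galactose-binding lectin, stood at 409.5, 527, 692 and 603 CPM (-0.47, adjusted p = 0.187). Retnla, a secreted product of alternatively activated macrophages, had 373, 801, 1382 and 1113 UMIs (-0.68, adjusted p = 0.480). These came from 3, 9, 17 and 23 cells, and 99.5% of those in BPTES 1 lay in 1 cell.

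Genes of glutamine metabolism and transport held 4 higher (12.9%) and 4 lower (12.9%) of 31 at an unadjusted p under 0.05, against 9.06% and 10.2% of all genes, and 0 were called. Glul, glutamine synthetase, stood at 90.1, 92.1, 88.0 and 114 CPM with overlapping groups (-0.15, SE 0.13, adjusted p = 0.598). The glutamine carrier Slc38a2 stood at 143, 151, 114 and 116 CPM (0.35, adjusted p = 0.118), and Slc3a2, the shared chain of amino acid exchangers, changed by -0.33 (adjusted p = 0.118). Glud1, glutamate dehydrogenase, changed by 0.10 (adjusted p = 0.527). Of 29 genes of the ATF4 response to amino acid stress 2 were higher (6.90%) and 4 lower (13.8%) at that level. Ddit4 stood at 12.2, 21.7, 6.71 and 9.07 CPM (1.10, adjusted p = 0.200), and its change was 0.63 without BPTES 2. Slc7a11, the cystine carrier, was at -0.83 (adjusted p = 0.221), Atf3 at 0.22 (adjusted p = 0.303) and Cebpb at 0.12 (adjusted p = 0.717).

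No energy gene was called in the main test, though Gapdh, Pkm and Hk3 were each called in some alternatives. Of 13 mitochondrially encoded genes 0 were under an unadjusted p of 0.05, with mt-Co1 at -0.082 (adjusted p = 0.754) and mt-Co3 at -0.12 (adjusted p = 0.618). Of 24 glycolysis genes 1 was higher (4.17%) and 7 lower (29.2%) at that level, against 9.06% and 10.2% of all genes. Gapdh changed by -0.33 (adjusted p = 0.145), Pkm, pyruvate kinase, by -0.24 (adjusted p = 0.281) and Hk3, a hexokinase, by -0.65 (adjusted p = 0.0841).

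Of 37 immediate early and dissociation genes 9 were higher (24.3%) and 5 lower (13.5%) at an unadjusted p under 0.05, against 9.06% and 10.2% of all genes. Their median change was 0.029, and 0 were called in the main test. In some alternatives Dnajb1 and Hspa1a were called higher and Nr4a3 lower. Hspa1a, an inducible chaperone of the Hsp70 family, stood at 609 and 731 CPM under BPTES and 396 and 289 under DMSO (0.97, SE 0.18, adjusted p = 0.120). Its co-chaperone gene Dnajb1 stood at 57.4, 72.9, 33.1 and 30.5 CPM (1.03, adjusted p = 0.0841), while Hspa1b changed by 1.09 (adjusted p = 0.176). Dnaja1 stood at 284, 467, 178 and 180.1 CPM (1.06, adjusted p = 0.170), Hsph1 at 74.1, 140.5, 43.0 and 28.9 CPM (1.57, adjusted p = 0.198) and Hspa8 at 911, 1346, 851 and 808 CPM (0.44, adjusted p = 0.308). BPTES 2 was the highest library for all 3, and without it their changes were 0.66, 1.04 and 0.13. T cells held Hspa1a at 281 and 501 CPM under BPTES and 194 and 187 under DMSO, and the difference between the cell types was -0.00488 (SE 0.27, adjusted p = 1). Other members of the list were Fos at -0.17 (adjusted p = 0.501), Nr4a1 at 0.40 (adjusted p = 0.126) and Nr4a3 at -0.69 (adjusted p = 0.0758). The part of cell handling in the other results was not tested.

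Immunoglobulin RNA was found in most members under BPTES. Igkc stood at 298 and 384 CPM under BPTES and 80.7 and 62.5 under DMSO (2.25, SE 0.19, adjusted p = 0.0758). It was found in 89.2% and 94.6% of thinned members under BPTES and 41.0% and 39.4% under DMSO, and in 91.7% and 96.1% and 46.9% and 48.2% of T cells. Unthinned, 98.3%, 99.1%, 67.2% and 68.5% of members held it. Proximal tubule cells held it at 250.2 and 374 CPM under BPTES and 59.9 and 58.3 under DMSO. Jchain changed by 2.62 (adjusted p = 0.118) and Igha by 3.72 (adjusted p = 0.131). The shares for Igkc lie below those of T cells, which do not make it, so they are not read as expression in the macrophages, and the source of this RNA was not tested.

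Senescence and p53 target genes held 2 higher (7.41%) and 2 lower (7.41%) of 27 at an unadjusted p under 0.05, against 9.06% and 10.2% of all genes. Cdkn1a, which encodes p21, stood at 95.6 and 102 CPM under BPTES and 125 and 139 under DMSO (-0.42, adjusted p = 0.118). The others under an unadjusted p of 0.05 were Bax (-0.37, adjusted p = 0.118), Cdkn1b (0.37, adjusted p = 0.118) and Bbc3 (0.56, adjusted p = 0.118), and the most abundant members were Ccnd1 (-0.021, adjusted p = 0.927) and Pmaip1 (0.062, adjusted p = 0.703). Cdkn2a, which encodes p16 and Arf, stood at 1.81, 1.83, 17.3 and 1.29 CPM (-2.36, SE 1.40, adjusted p = 0.460), so it was high in DMSO 1 alone. It was found in 1.39%, 1.65%, 11.1% and 0.623% of thinned members and in 1.09% to 1.97% of T cells, while 2.41%, 2.84%, 16.2% and 1.85% of members held it before thinning.

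DMSO 2 stood apart from the other libraries in several genes. Mmp12, macrophage elastase, stood at 675 and 763 CPM under BPTES and 475 and 218 under DMSO (1.05, SE 0.43, adjusted p = 0.312), and 51.6%, 56.7%, 35.3% and 12.9% of thinned members held it, against 57.5%, 63.3%, 39.1% and 16.4% unthinned. Its change was 1.74 without DMSO 1 and 0.60 without DMSO 2, and it too was called in both of these fits. Apoe, a lipid carrier, stood at 4047, 3175, 5246 and 10386 CPM (-1.11, SE 0.38, adjusted p = 0.244), and Spp1, osteopontin, at 63.0, 26.4, 91.5 and 310.3 CPM (-2.16, SE 0.94, adjusted p = 0.370). Without DMSO 2 the change of Apoe was -0.54 and that of Spp1 -1.03. T cells held Spp1 at 22.7 and 40.6 CPM under BPTES and 208 and 321 under DMSO. Proximal tubule cells held it at 588 and 729 CPM under BPTES and 1081 and 1444 under DMSO. The values of Spp1 are therefore not read as expression in the macrophages, and the source of this RNA was not tested. Of 38 lipid genes 3 were higher (7.89%) and 5 lower (13.2%) at an unadjusted p under 0.05, against 9.06% and 10.2% of all genes. Lpl, lipoprotein lipase, stood at 158, 214, 368 and 252 CPM (-0.74, adjusted p = 0.249), and its change was -0.42 without DMSO 1 and -0.98 without DMSO 2. Apobec1 changed by 0.076 (adjusted p = 0.794). Of 39 genes of matrix remodelling and growth factors 4 were higher (10.3%) and 8 lower (20.5%) at that level. Tgfbr1, a TGF-beta receptor, stood at 1528, 1524, 1094 and 751 CPM (0.73, adjusted p = 0.156), with a change of 0.48 without DMSO 2. Mmp14, a membrane protease, stood at 39.0, 39.9, 69.6 and 85.3 CPM (-0.97, adjusted p = 0.0782) and Pmepa1, a TGF-beta target gene, at 84.7, 85.6, 158 and 139 CPM (-0.80, adjusted p = 0.0758). Timp1, a protease inhibitor found in 5, 5, 33 and 32 cells, changed by -3.30 (adjusted p = 0.118), and Lgals3, galectin 3, by -0.18 (adjusted p = 0.757).

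**Figure D5:**
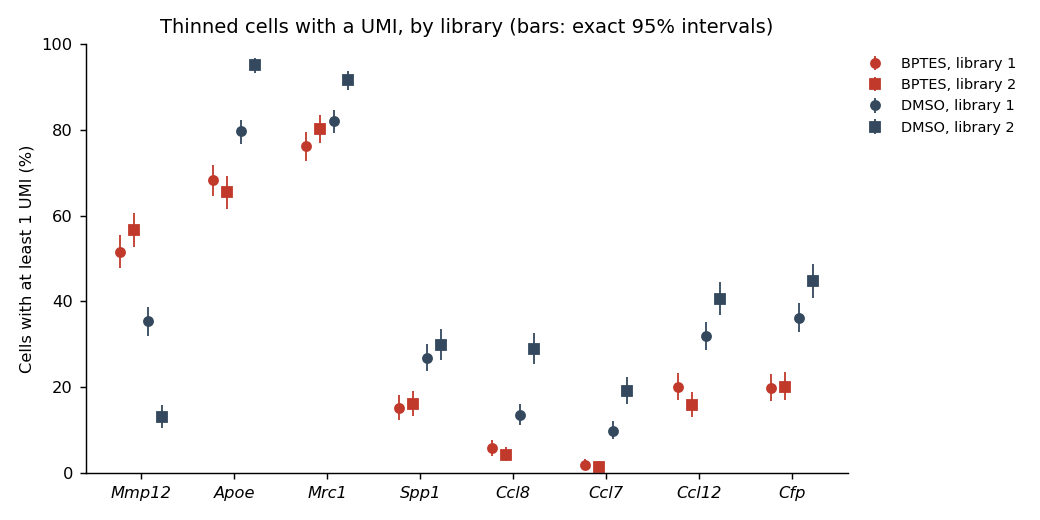
Percent of members, thinned to 8000 UMIs, with at least 1 UMI of 8 genes in each library; bars are exact 95% binomial intervals, which cover counting error only. DMSO 2 is lowest for Mmp12 (12.9%) and highest for the other 7 genes. Spp1 RNA was also present in T cells and proximal tubule cells.

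Members with and without Mmp12 were compared for other genes, a description with no test that was chosen after the data were seen. Only genes whose ratio had the same sign in every library were ranked, so that agreement was set by the choice. Members with Mmp12 held less Ccl8 (mean log2 ratio -3.66), Ccl7 (-2.29), Pf4 (-1.99), Ccl12 (-1.71), Apoe (-1.40) and Maf (-1.35). They held more Ccl17 (3.29), Cd209a (1.43), Mmp13 (1.18) and Itgax, which encodes CD11c (1.15). They were also deeper, with medians of 15114, 14860, 20198 and 30413 UMIs against 13491, 13414, 15987 and 17912 in members without it. Among members with Mmp12, of which DMSO 2 had 115, 634 of 12529 genes were called, 5 of the 6 among them. Among members without it 7 of 12618 were called, 3 of the 6 among them. Acp5 changed by -2.20 in members with Mmp12 and by -0.90 in those without it, and Ccl17 by -1.43 and -7.05. The share of members with Mmp12 and their depth differed between BPTES and DMSO libraries. The fits with and without Mmp12 therefore cannot be set against each other as a stronger or weaker response.

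Cells that met every other condition but held at least 2 Cd5l UMIs numbered 1, 2, 56 and 2, so 56 of 61 came from DMSO 1 and their response to BPTES could not be compared. Within DMSO 1 these cells held more Fcna (589 against 5.17 CPM), Vsig4 (129 against 0.470 CPM), the iron exporter gene Slc40a1 (908 against 42.8 CPM) and Stab2 (89.3 against 2.82 CPM) than the members. They held less Mgl2 (99.8 against 689 CPM) and Plxdc2 (45.1 against 315 CPM). These values come from 1 library and were not tested.

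The response of the macrophages was set beside that of T cells from the same libraries in 1 model with library as a block, a comparison added after the number of Cd5l-positive cells was seen. Of 14818 genes 0 differed in response at an adjusted p of 0.05 (0%), and 1139 (7.69%) were at an unadjusted p under 0.05. Without DMSO 1 the count was 33, without BPTES 1 13 and without BPTES 2 11. None of the genes named above is therefore called particular to the macrophages.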

How the data were processed

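Single cells of 4 kidney libraries were counted with 10x GEM-X 3' chemistry. The deposited files hold raw UMI counts per gene and barcode, made by the authors with Cell Ranger 8.0.1 on mm10, per the submitters' processing notes. Filters beyond that are not given in the sources used here. Counts of members were summed per library, since cells are not replicates. The 13 genes of the rule and the tdTomato entry stayed in library sizes and out of the tests. Sums were tested with edgeR 4.0.16 (R 4.3.3; TMM, filterByExpr, robust quasi-likelihood, Benjamini-Hochberg over all genes, threshold 0.05); DESeq2 1.42.0 was an alternative. Summed depth was 13246870 to 19154741 UMIs. On simulated counts of 13777 genes the edgeR step recovered 79% of 100 genes changed 2-fold and 100% of 100 changed 4-fold. False calls numbered 3 in all. These counts were given a dispersion, a measure of spread between libraries, of 0.0216. Recovery at other dispersions or in the measured counts was not tested. Doublets were left in the main test; Scrublet (scanpy 1.11.5) removal of the highest scores was an alternative. Shares of cells were taken after thinning to 8000 UMIs.

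The members and lists were chosen with earlier results of these data known. Named genes are those called whose groups do not overlap and whose log2 CPM averages 5 or more (up to 12 a direction), up to 2 called and the 2 most abundant members of each of 22 lists, and a fixed set; others are said to be named after their values were seen. Some genes that the rule names are not reported here. A planned rule naming genes that separate Cd5l-positive cells in every library could not be applied, and DMSO 1 alone is described. Library numbers were checked for pairing and are not stated to pair samples. Alternatives covered the test, scaling, filters, doublets, the limits of the rule, and each library left out.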

Additional observations from a re-analysis of the deposited data

How the results depend on the processing

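The count of 6 called genes depended on the processing. It was 436 with DESeq2 (223 higher), 2 with RLE scaling, 371 with no filter on low counts, 41 without Scrublet doublets, 1 with Cd5l at 0, and 15 with 0 UMIs of Cd79a, Lrp2, Slc34a1, Mki67 and Top2a. Settings chosen after seeing the data gave 178 without members that held other types' markers (60 higher) and 634 in members with Mmp12. Leaving out 1 library gave 0 to 719 calls, 0 without either BPTES library. The cause of these differences was not tested. The labels' sample numbers do not say that samples were paired. With the number as a replicate block, 0 genes were called (2399 at an unadjusted p under 0.05), and deviations of same-numbered libraries correlated at -0.11 across genes. The crossed replicate block, added after seeing the data, gave 4 calls, 1 of them among the 6. The 5 called genes other than Mucl1 kept their direction under each of 18 alternatives, and Mucl1 under each of the 15 that gave it a value. Of 89 named genes with a log2 change of at least 0.3, 27 moved by over 1.5 times when 1 library was left out, 12 without DMSO 2, 8 without DMSO 1, 8 without BPTES 2 and 5 without BPTES 1, and none of these was called with all 4 libraries. Those whose value is not given beside the result were Adgre1 (-0.038), C3ar1 (-0.50), Ccl8 (-1.25) and Relb (-0.39) without DMSO 2. They were Adgre1 (-0.60), Ccr2 (-0.20), Cxcr4 (0.48) and Cdkn2a (0.52) without DMSO 1, Timd4 (0.26), Ciita (0.21) and Retnla (-1.38) without BPTES 2, and Lyve1 (1.95), Cd163 (0.39), Retnla (-0.21), Mgl2 (-0.29) and Hspa8 (0.70) without BPTES 1. For the difference in response from T cells, no filter on low counts gave 20 calls and leaving out 1 library gave 0 to 33. The planned comparison of the responses of Cd5l-low and Cd5l-positive macrophages was not run, since 3 libraries held 1 or 2 Cd5l-positive cells.

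Some fold changes of genes that were not called changed sign, and their log2 values under those settings follow in brackets. In members with Mmp12 this held for Adgre1 (0.057), Laptm5 (-0.017), Folr2 (-0.16), Cd74 (-0.032), H2-Ab1 (-0.041), H2-Aa (-0.021), Ly6e (0.23), Glul (0.11), Slc7a11 (0.10), Atf3 (-0.020), Ccnd1 (0.017) and Pmaip1 (-0.065). In members without Mmp12 it held for Csf1r (0.014), Cd74 (-0.00202), H2-Ab1 (-0.061), H2-Aa (-0.049), Ifitm3 (0.12), Ccl6 (0.31), Retnla (4.09), Apobec1 (-0.059) and Lgals3 (0.21). With at least 20 C1q UMIs, it held for H2-Ab1 (-0.012), H2-Aa (-0.010) and Ifitm3 (0.00149). With 0 UMIs of Cd79a, Lrp2, Slc34a1, Mki67 and Top2a, it held for Folr2 (-0.16), H2-D1 (-0.00754), Retnla (0.20), Atf3 (-0.10), Cebpb (-0.21) and Pmaip1 (-0.021). Without members that held other types' markers, it held for Folr2 (-0.11), Cebpb (-0.31), mt-Co1 (0.060) and mt-Co3 (0.028). With DESeq2, it held for Ifitm3 (0.0021). With RLE scaling, it held for Ifitm3 (0.00214). Without doublets, it held for Ccnd1 (0.021). With 1 library left out, the genes that changed sign ranged as given for Folr2 (-0.27 to 0.59), H2-Ab1 (-0.013 to 0.023), H2-Aa (-0.018 to 0.030), H2-D1 (-0.011 to 0.051), Ifitm3 (-0.098 to 0.073), Apobec1 (-0.065 to 0.26), Glul (-0.30 to 0.053), Cebpb (-0.051 to 0.34), mt-Co1 (-0.18 to 0.00846), Lgals3 (-0.43 to 0.15), Cdkn2a (-3.24 to 0.52) and Ccnd1 (-0.12 to 0.11). The share of macrophages kept its direction under each alternative. The groups overlapped with all cells passing the filter as denominator and with at least 20 C1q UMIs (exact permutation p = 0.667 for each). With 2 libraries a group, the number of libraries limits every test, and the values of Ccl17, Mucl1, Retnla and Lyve1 also rest on few cells.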

Other observations

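Several genes outside the lists had higher values under BPTES, and they are named after their values were seen. Jade2, a chromatin-associated gene, stood at 65.9 and 71.9 CPM under BPTES and 37.9 and 38.0 under DMSO (0.86, SE 0.080, adjusted p = 0.0729 by edgeR). Camkk2, a calcium-dependent kinase, stood at 55.8, 58.1, 35.6 and 34.8 CPM (0.69, adjusted p = 0.0758 by edgeR), and Itga4, the alpha 4 integrin chain, at 306, 305, 205 and 180.3 CPM (0.67, adjusted p = 0.0841 by edgeR). Ccnd3, cyclin D3, stood at 306, 453, 179.9 and 167 CPM (1.13, adjusted p = 0.120 by edgeR). Both BPTES libraries lay above both DMSO libraries in each of these genes, and none passed the adjusted threshold.

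The genes that follow were also picked after their values were seen, stand for no list and were not tested as a group. Fkbp5 stood at 53.3, 95.4, 32.9 and 37.6 CPM (1.08, adjusted p = 0.210 by edgeR), and its change was 0.60 without BPTES 2. Tsc22d3, which encodes GILZ, stood at 135, 158, 58.9 and 91.2 CPM (0.97, adjusted p = 0.174 by edgeR) and Zbtb16 at 106, 95.7, 73.7 and 55.7 CPM (0.64, adjusted p = 0.138 by edgeR). None was called.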
